A study of Homo sapiens with 19 samples.

Results

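BRG1 was silenced by shRNA in a human melanoma line and in untransformed human melanocytes, and the difference between the effects in these cells was tested gene by gene. Of the 19 RNA-seq samples of the study, 12 belong to this comparison, and they were chosen by their labels and by no measured value. In 501Mel, an established melanoma line, 3 samples carried shBRG1 and 3 the scramble control shSCR1. In Hermes 3A, a line of human melanocytes, 3 samples carried shBRG1 and 3 the scramble control shSCR. All 4 groups were infected with lentiviral shRNA vectors, and each shBRG1 group rests on the same 1 hairpin. Hermes 3A cells were grown with a phorbol ester, cholera toxin, stem cell factor and endothelin-1, which 501Mel cells were not given, so that cell line and medium cannot be told apart. The labels number the replicates without saying whether they are separate infections, and the p-values below therefore measure the spread between these samples, which may be technical. In bulk RNA, fewer cells of a kind and less RNA per cell cannot be told apart.

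BRG1, encoded by SMARCA4, is 1 of the alternative ATPases that drive SWI/SNF chromatin remodellers, which slide or evict nucleosomes and so open promoters and enhancers. In pigment cells the transcription factors MITF and SOX10 hold the lineage together, and SWI/SNF complexes act as their cofactors at pigment genes. The contrast addressed here was (shBRG1 against shSCR1 in 501Mel) minus (shBRG1 against shSCR in Hermes 3A), called the interaction. It asks which genes answer to the loss of BRG1 in 1 line only, in both lines alike, or in opposite directions.

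The gene totals of the samples ran from 32941771 to 61804675 reads. Levels are given as CPM, read counts scaled to the size of their library and normalized over the 12 samples together, and log2 fold changes come from 1 edgeR fit of all 12. Calls needed an adjusted p below 0.05 together with a log2 value beyond 1 in either direction, and "rose" and "fell" are used of called genes only. SMARCA4 was at 180, 193 and 188 CPM in 501Mel shSCR1 and at 36.2, 39.2 and 34.8 CPM with shBRG1. In Hermes 3A it was at 250, 259 and 234 CPM with shSCR and at 46.7, 49.1 and 50.7 CPM with shBRG1. Every knockdown sample lay far below every control, and the fall was as deep in 501Mel (log2 fold change of -2.35 ± 0.0513 SE) as in Hermes 3A (-2.34 ± 0.051), with an interaction of -0.01 (95% interval -0.149 to 0.135, adjusted p = 0.964). The depth of silencing at the RNA level therefore differed by less than its error between the lines. Both lines carried the pigment-lineage markers MITF, SOX10, PMEL, MLANA, TYR, TYRP1, DCT and S100B, as their labels state. Summed over the tested markers, immune genes (3 of 8 listed) stayed between 0.346 and 3.5 CPM in every sample and endothelial genes (6 of 8) between 2.17 and 21.1 CPM, while fibroblast markers (9 of 10) summed to 11.4 to 15.9 CPM in 501Mel and to 397 to 478 CPM in Hermes 3A, of which FAP, a surface protease also made by other cells, gave 329 CPM on average with shSCR. The keratinocyte sum (5 of 10) of 28.4 to 36.4 CPM came nearly all from KRT10, a keratin. None of these lists was called in Hermes 3A for more than 1 member, and the part of such cells in the results was not tested.

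Many more genes answered to shBRG1 in the melanoma line. In 501Mel 4630 of 21697 tested genes rose (21.3%) and 3661 fell (16.9%), against 1362 (6.28%) and 705 (3.25%) in Hermes 3A. The interaction was called for 5834 genes, of which 2610 (12%) were higher and 3224 (14.9%) lower in 501Mel than in Hermes 3A. The split between higher and lower calls moved with the scaling. The 501Mel shBRG1 samples had normalization factors of 1.29 to 1.31, against 1.02 to 1.03 in their controls. Higher genes made up 44.7% of the calls here, 61.8% when only library sizes were used and 60.2% with upper quartile factors, and the median interaction moved by 0.27 and 0.24. Single genes are therefore read against the median over all tested genes, which was 0.07 in 501Mel, 0.04 in Hermes 3A and -0.03 for the interaction, and against -0.19, 0.02 and -0.19 over the 12562 genes at 1 CPM or more in both lines. Another scramble group of 501Mel, shSCR2 (2 samples), gave a second reference. With it 56.2% of the calls were higher, and the median interaction moved by 0.13. Where it or a scaling ended or turned a printed interaction of a gene chosen by the naming rule, at least 1 such value is given. Other list members, named for their class, were not followed across settings. The study's methods do not say how the vectors of the 2 scramble groups differ.

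Responses called in the melanoma line alone were the rule. A gene was placed in the melanoma-only class when it was called in 501Mel, not called in Hermes 3A, and called in the interaction in the same direction. This held for 1920 genes that rose (8.85%) and 2159 that fell (9.95%). The mirror class, melanocyte only, held 325 genes that rose (1.5%) and 153 that fell (0.705%). Genes called in both lines in 1 direction, with the 95% interval of the interaction inside -1 to 1, were taken as alike: 92 rose (0.424%) and 120 fell (0.553%). Genes called in both lines in 1 direction with the interaction called as well were unequal: 139 rose (0.641%) and 124 fell (0.572%). Another 468 genes, called in both lines in 1 direction, met neither rule. In 137 genes the change was down in 501Mel and up in Hermes 3A (0.631%), and in 77 it was up in 501Mel and down in Hermes 3A (0.355%). A further 3055 genes called in 501Mel alone and 432 called in Hermes 3A alone had no called interaction, so that no difference between the lines was shown for them.

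**Figure D1:**
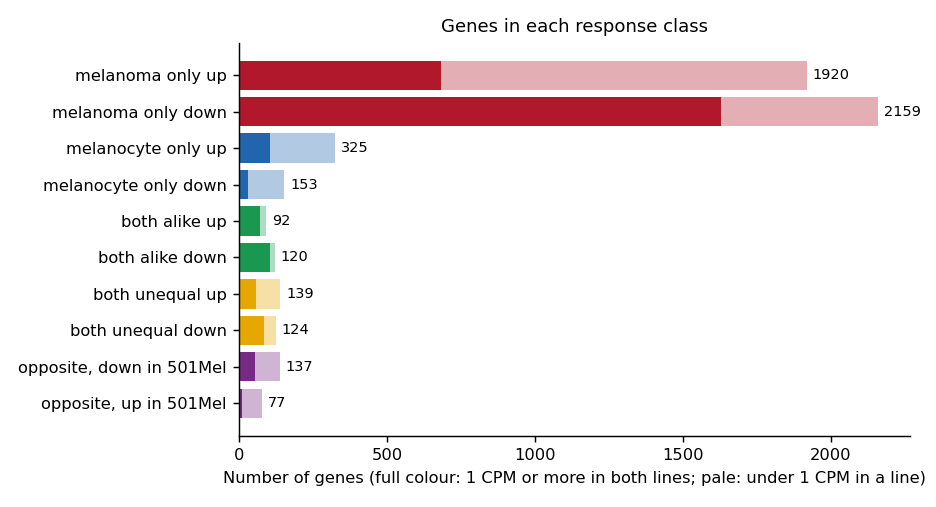
Number of genes in each response class (horizontal axis, genes), with full colour for genes at 1 CPM or more in both lines and pale colour for genes under 1 CPM in a line. The melanoma-only classes hold 1920 and 2159 genes and the opposite classes 137 and 77, and pale colour makes up most of the genes that rose in 501Mel only or moved up in 501Mel and down in Hermes 3A.

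The classes differed in abundance and gene type. Genes that fell in 501Mel only were abundant in both lines (median 22.4 CPM in 501Mel shSCR1 and 20.9 CPM in Hermes 3A shSCR), and 85.9% of them were protein coding. Genes that rose in 501Mel only were scarce (median 0.506 CPM with shSCR1 and 2.18 CPM with shBRG1), and 54.6% of them were protein coding, against 69.9% of all tested genes. The count filter kept a gene that was high enough in 1 group alone. Genes scarce in the controls could thus enter through the shBRG1 samples where they were high. How far this filter set the difference in abundance and gene type between the classes was not tested. Among genes at 1 CPM or more in both lines, 929 interaction calls were higher and 2220 lower. Of the higher calls, 1152 had a group with a mean under 10 counts, as had 618 of the lower. Of the genes called in 501Mel, 14% were also called in Hermes 3A, and of those called in Hermes 3A, 56% were also called in 501Mel. Across the 12562 genes at 1 CPM or more in both lines, the 2 fold changes had a Spearman rho of 0.432, a description over genes of the same 12 libraries.

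**Figure D2:**
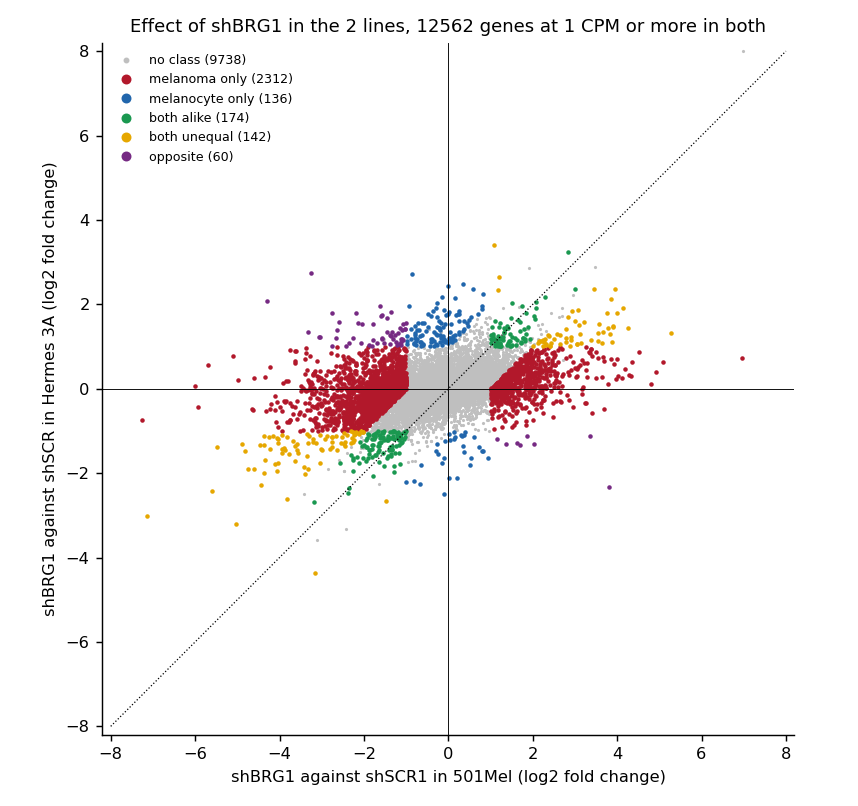
Log2 fold change with shBRG1 in 501Mel (horizontal) against that in Hermes 3A (vertical) for 12562 genes at 1 CPM or more in both lines, coloured by response class, with 1 gene beyond the limit of 8 drawn at the edge. The cloud is wider along the 501Mel axis, and 2312 of the points are in a melanoma-only class against 136 in a melanocyte-only class and 60 in an opposite class.

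Of 17 tested lineage transcription factors (of 18 listed), 8 fell (47.1%) and 3 rose (17.6%) in 501Mel, MITF and SOX10 among those that fell. Of all tested genes 16.9% fell and 21.3% rose there. MITF, the master regulator of the melanocyte lineage, was at 519, 604 and 617 CPM in 501Mel shSCR1 and at 202, 184 and 211 CPM with shBRG1. In Hermes 3A it was at 1038, 1050 and 1155 CPM with shSCR and at 818, 814 and 832 CPM with shBRG1. Knockdown and control samples did not overlap in either line, but the fold change was -1.54 ± 0.0572 (SE) in 501Mel and -0.40 ± 0.0556 in Hermes 3A. The interaction for MITF was -1.15 ± 0.0791 (adjusted p = 2.63e-15), and it came to -0.87 with library sizes and -0.90 with upper quartile factors, which is under the fold threshold. SOX10, which activates MITF, went from 477, 496 and 470 CPM to 90.2, 85.1 and 92.4 CPM in 501Mel and from 684, 719 and 643 CPM to 542, 529 and 519 CPM in Hermes 3A. Its fold change was thus -2.43 ± 0.0489 against -0.36 ± 0.0459, with an interaction of -2.07 ± 0.0661 (adjusted p = 1.13e-25). IRF4, a pigmentation factor downstream of MITF, showed the largest negative interaction of the listed factors at -2.80 ± 0.106. In Hermes 3A 1 of the 17 rose and none fell. The riser in Hermes 3A was SOX9, a neural crest factor, which was under 1.1 CPM in every sample and rose in both lines (interaction 3.29 ± 0.636). Besides MITF, SOX10 and IRF4, the factors that fell in 501Mel only were TFAP2A, SOX6, ETV1, TFEB and SNAI2, and LEF1 and TFE3 rose in 501Mel only. The LEF1 interaction (1.25) came to 0.87 with shSCR2 as the reference, and that of TFAP2A (-1.4) to just under the fold threshold, so that neither was called there.

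Of the 27 genes listed for melanin synthesis and melanosomes, 20 fell in 501Mel (74.1%) and 5 in Hermes 3A (18.5%). Of all tested genes 16.9% and 3.25% fell. TYR, tyrosinase, the first enzyme of melanin synthesis, went from 1262, 1283 and 1284 CPM to 82.1, 70.7 and 82.3 CPM in 501Mel. In Hermes 3A it went from 2124, 2049 and 2185 CPM to 1141, 1149 and 1091 CPM. TYR was thus 16.3-fold lower in the melanoma line and 1.88-fold lower in the melanocytes, an interaction of -3.11 ± 0.074 (adjusted p = 1.3e-29). PMEL, which forms the fibrils of the melanosome, was 8.83-fold lower in 501Mel and 1.8-fold lower in Hermes 3A (interaction -2.30 ± 0.0707). TYRP1, a tyrosinase-related protein and the most abundant of these genes in Hermes 3A shSCR, fell in both lines. It went from a mean of 6020 to 369 CPM in 501Mel and from 30111 to 13178 CPM in Hermes 3A. DCT, the dopachrome tautomerase, fell in both lines as well (-5.04 ± 0.163 and -3.21 ± 0.233), from very different starting levels of 1582 and 22.5 CPM. All 27 were tested, 1 rose in 501Mel, and the interaction was lower for 17 and higher for 1. By class, 14 fell in 501Mel only and 3 fell in both lines by unequal amounts. Their median fold change was -2.23 in 501Mel and -0.71 in Hermes 3A, and the median interaction of -1.57 held its sign with library sizes (-1.29) and with shSCR2 (-1.14). KIT, the receptor of stem cell factor, was 4.71-fold lower in 501Mel and 1.43-fold lower in Hermes 3A, but its interaction of -1.72 came to -0.81 with shSCR2. HPS1, a subunit of a complex for melanosome biogenesis, was the riser, with an interaction of 1.48 that came to 0.96 with shSCR2.

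SLC45A2, a transporter that sets melanosome pH, departed from the other pigment genes. It went from 853, 946 and 942 CPM to 169, 171 and 185 CPM in 501Mel and from 12.8, 11 and 11.7 CPM to 2.12, 2.25 and 2.1 CPM in Hermes 3A. The fold changes were -2.39 ± 0.0492 and -2.46 ± 0.0905, and the interaction was 0.07 (95% interval -0.145 to 0.29). It was the only listed pigment gene in the alike class.

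**Figure D3:**
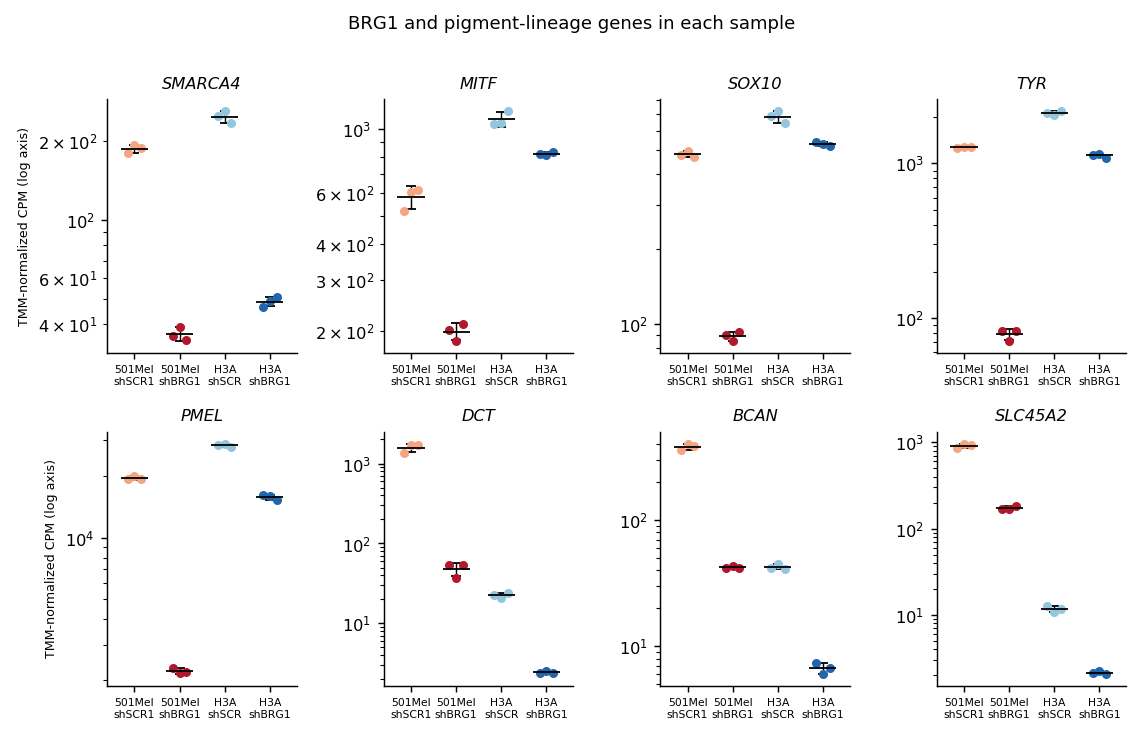
TMM-normalized CPM (log axis) of SMARCA4 and 7 pigment-lineage genes in each of the 12 samples, with points for samples and bars for the mean and SD of 3. SMARCA4 falls alike in both lines, MITF, SOX10, TYR and PMEL fall further in 501Mel, and BCAN and SLC45A2 fall by like ratios in both lines from different levels.

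The promoters of TYR and TYRP1 are shown because MITF binds a CATGTG element at pigment genes, and these are the best known of them. The stretches are the 250 bases before the RefSeq start on GRCh38.p14, chr11:89177625-89177874 (plus strand) for TYR and chr9:12693135-12693384 (plus strand) for TYRP1, with CATGTG in either orientation in capitals.
TYR: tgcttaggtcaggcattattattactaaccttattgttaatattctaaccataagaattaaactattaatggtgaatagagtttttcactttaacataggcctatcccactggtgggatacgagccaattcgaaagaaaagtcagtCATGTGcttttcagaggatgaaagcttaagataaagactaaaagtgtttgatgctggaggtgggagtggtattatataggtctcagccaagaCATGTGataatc
TYRP1: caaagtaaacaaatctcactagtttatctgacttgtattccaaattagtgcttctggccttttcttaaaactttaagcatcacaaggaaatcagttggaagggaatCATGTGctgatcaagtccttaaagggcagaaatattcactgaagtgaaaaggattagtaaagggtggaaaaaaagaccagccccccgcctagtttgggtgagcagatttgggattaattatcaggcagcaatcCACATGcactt
The TYR matches begin 104 and 12 bases before the start and those of TYRP1 144 and 11 bases before it. CATGTG was found on either strand in 10 of the 22 pigment genes with a promoter entry (45.5%), against 6.42% of the 13499 tested genes with one. Among genes that fell in 501Mel only, it was in 6.64%. A match is only a run of letters, and binding was not measured in these samples.

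Of the 41 listed interferon-stimulated genes, 19 rose in Hermes 3A (46.3%, beside 6.28% of all tested genes), 14 fell in 501Mel (34.1%, beside 16.9%), and 6 did both. These are the genes, such as IFIT, MX and OAS family members, that cells switch on when interferon or foreign nucleic acid is sensed. IFIT1, which binds viral RNA ends, was at 7.2, 7.09 and 7.44 CPM in 501Mel shSCR1 and at 2.26, 2.35 and 2.55 CPM with shBRG1. In Hermes 3A it was at 211, 193 and 242 CPM with shSCR and at 692, 717 and 715 CPM with shBRG1. No sample of a knockdown overlapped its controls, and IFIT1 was 3.03-fold lower in 501Mel and 3.28-fold higher in Hermes 3A (interaction -3.32 ± 0.111, adjusted p = 1.33e-24). MX1, an antiviral GTPase, went from 6.33, 6.52 and 6.73 CPM to 2.24, 1.82 and 2.32 CPM in 501Mel and from 183, 165 and 187 CPM to 664, 704 and 712 CPM in Hermes 3A. Its interaction was -3.57 ± 0.105 (adjusted p = 8.85e-27). OASL, an OAS-like protein of RNA sensing, had the largest interaction of the list, -6.37 ± 0.316, on counts of 1, 10 and 12 reads in the 501Mel knockdown samples. ISG15, a ubiquitin-like modifier, rose in Hermes 3A alone, from 300, 291 and 282 CPM to 864, 976 and 1005 CPM, and was at 8.28, 9.91 and 8.87 CPM and at 12.2, 14.4 and 12.7 CPM in 501Mel. Its interaction of -1.17 ± 0.093 came to -0.89 with library sizes and -0.83 with shSCR2.

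All 41 were tested. In Hermes 3A none fell, and in 501Mel 5 rose (12.2%, beside 21.3% of all tested genes). The interaction was lower for 27 (65.9%, beside 14.9%) and higher for 4 (9.76%, beside 12%). The median fold change was 0.97 in Hermes 3A and -0.43 in 501Mel, beside 0.04 and 0.07 over all tested genes. The opposite class took 6 of them, IFIT1, MX1, MX2, OASL, DDX60 and RSAD2. Another 8 rose in Hermes 3A only, the RNA sensors RIGI and IFIH1 with IFIT2, IFIT3, IFI35, ISG15, OAS1 and PARP9, and 8 fell in 501Mel only, among them IFIT5, IFI6, ISG20, OAS2, HERC5, SAMD9L and BST2. XAF1 rose alike in both lines, GBP1 rose in both by unequal amounts, and EPSTI1 and TRIM22 rose in 501Mel only. IFI44L had no read in any 501Mel shSCR1 sample and 21, 22 and 19 reads with shBRG1, so that no fold is given for it. The summed level of the 41 genes was 1160 to 1180 CPM in 501Mel shSCR1 and 701 to 731 CPM with shBRG1, and in Hermes 3A it was 6650 to 6800 CPM and 12600 to 13400 CPM. The level before silencing thus differed between the lines by more than the effect of shBRG1 in either.

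The direction within 501Mel rests in part on the scramble control. With shSCR2 as the reference, 13 of the 41 genes rose and 10 fell in 501Mel, with a median of 0.22 in place of -0.43. The interaction was then lower for 18 genes and higher for 5, with a median of -0.65 in place of -1.46. It stayed called for IFIT1, MX1 and OASL, with an IFIT1 interaction of -2.90, an MX1 interaction of -2.82 and an OASL interaction of -3.75.

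**Figure D4:**
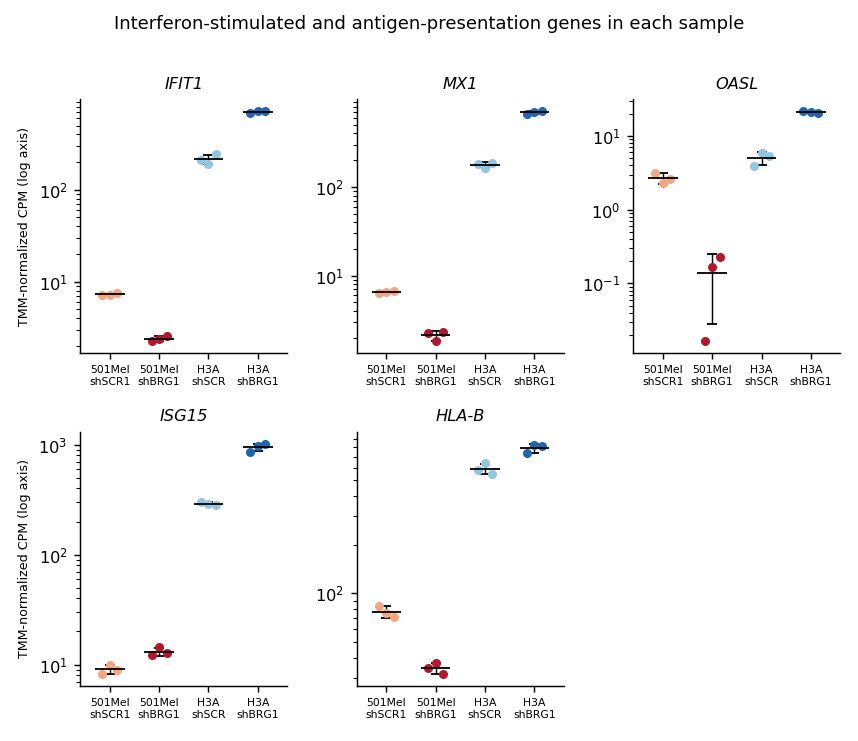
TMM-normalized CPM (log axis) of IFIT1, MX1, OASL, ISG15 and HLA-B in each of the 12 samples, with points for samples and bars for the mean and SD of 3. With shBRG1 the Hermes 3A samples of IFIT1, MX1, OASL and ISG15 lie above their controls, while the 501Mel samples lie below theirs for every gene shown but ISG15.

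Promoters of IFIT1 and ISG15 are shown for the interferon-stimulated response element, searched on both strands as GAAA, any 2 bases and GAAA again. They are the 250 bases before the RefSeq start on GRCh38.p14, chr10:89392373-89392622 (plus strand) for IFIT1 and chr1:1013247-1013496 (plus strand) for ISG15, with matches in capitals.
IFIT1: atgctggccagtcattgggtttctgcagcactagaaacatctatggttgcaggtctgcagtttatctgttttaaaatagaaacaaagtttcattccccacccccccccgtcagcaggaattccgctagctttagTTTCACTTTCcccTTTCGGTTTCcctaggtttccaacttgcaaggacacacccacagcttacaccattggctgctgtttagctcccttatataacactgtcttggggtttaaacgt
ISG15: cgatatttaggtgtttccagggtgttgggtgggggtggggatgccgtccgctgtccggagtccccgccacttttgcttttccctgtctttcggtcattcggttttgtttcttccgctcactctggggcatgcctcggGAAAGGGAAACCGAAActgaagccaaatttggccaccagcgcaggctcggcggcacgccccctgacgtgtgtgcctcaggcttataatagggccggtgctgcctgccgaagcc
The matches of IFIT1 begin 116 and 103 bases before the start. Those of ISG15 begin 113 and 107 bases before it and overlap. The element was found in 19 of the 33 listed genes with a promoter entry (57.6%), against 2.31% of all tested genes with one. In the class down in 501Mel and up in Hermes 3A it was found in 8 of 85 (9.41%), and in the mirror class in none of 48.

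For antigen presentation the difference between the lines depended on the control. Of 21 tested genes (of 23 listed), 10 fell (47.6%) and 1 rose (4.76%) in 501Mel, beside 16.9% and 21.3% of all tested genes. In Hermes 3A 4 rose (19%) and 2 fell (9.52%), beside 6.28% and 3.25%. The interaction was lower for 11 (52.4%, beside 14.9%) and higher for none by edgeR's test. TAP1, the peptide transporter, and PSMB9, an immunoproteasome subunit, were in the opposite class (interactions -2.25 and -2.66). HLA-B, HLA-C and HLA-F, chains of class I molecules, fell in 501Mel only. HLA-B was at 83.9, 75.1 and 71.3 CPM and then at 34.5, 36.9 and 31.6 CPM in 501Mel, and at 583, 638 and 552 CPM and then at 735, 828 and 819 CPM in Hermes 3A (interaction -1.59 ± 0.0872). With shSCR2 the HLA-B interaction turned to 0.57, and the list had 3 genes higher and 4 lower with a median of 0.21 in place of -1. Against that control 2 genes of the list rose and 2 fell in 501Mel. HLA genes are near-identical copies that can share reads, and how the counting split such reads is not given in the sources used here. NLRC5, the activator of class I genes, rose in Hermes 3A only, and TAPBP, the tapasin that loads class I molecules, rose alike in both. The class II genes HLA-DPA1 and HLA-DMA fell in both. The HLA-DPA1 interaction of -2.88 came to -0.82 with shSCR2.

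Single genes outside the interferon list were also called in opposite directions. CDK6, a kinase that drives G1, was at 10.8, 12.2 and 11.4 CPM in 501Mel shSCR1 and at 50, 42.7 and 47.6 CPM with shBRG1. In Hermes 3A it fell from 24, 23.9 and 26.4 CPM to 9.16, 10.2 and 10.4 CPM. Against shSCR1 the knockdown thus reversed the order of the lines for CDK6, which rose 4.08-fold in 501Mel and fell 2.50-fold in Hermes 3A (interaction 3.35 ± 0.105, adjusted p = 6.38e-26). With shSCR2 the CDK6 interaction was 1.45, near the size of the Hermes 3A change of -1.32, so that the rise in 501Mel is relative to shSCR1. NOTCH3, a receptor of the Notch pathway, fell from 42.9, 38 and 36.6 CPM to 4.23, 4.86 and 4.96 CPM in 501Mel and rose from 6.34, 6.4 and 6.03 CPM to 14.9, 14.5 and 14.3 CPM in Hermes 3A (interaction -4.29 ± 0.117). EFNA1, a ligand of Eph receptors, fell 6.74-fold in 501Mel and rose 3.44-fold in Hermes 3A. Its interaction of -4.54 ± 0.136 was -0.03 with shSCR2, so that no difference remained against that control. TM4SF1, a tetraspanin-like membrane protein, and CEND1, a neuronal regulator of cell cycle exit, fell in 501Mel and rose in Hermes 3A at means under 16 CPM (interactions -4.65 ± 0.256 and -5.98 ± 0.325). FES, a tyrosine kinase, SSX1, a cancer-testis antigen, and LOX, which crosslinks collagen, rose in 501Mel and fell in Hermes 3A. Their interactions were 4.48 ± 0.207, 3.04 ± 0.163 and 2.99 ± 0.25, at means of at most 9.02 CPM. In the matrix and TGF-beta lists, LAMB3, a laminin chain, rose in 501Mel and fell in Hermes 3A, and TIMP3, a metalloproteinase inhibitor, and LTBP1, a latent TGF-beta binding protein, did the reverse.

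Of 41 tested growth factors, matricellular proteins and cytokines (of 48 listed), 21 rose in 501Mel (51.2%) and 14 in Hermes 3A (34.1%). Over all tested genes these shares were 21.3% and 6.28%. CCN1 and CCN2 are secreted matricellular proteins and well-known targets of the YAP and TEAD factors. CCN1 went from 116, 107 and 98.8 CPM to 1431, 1469 and 1281 CPM in 501Mel, and from 106, 114 and 112 CPM to 83.1, 74.4 and 78.7 CPM in Hermes 3A. From like levels in the controls it thus rose 13-fold in the melanoma line and was 1.4-fold lower in the melanocytes (interaction 4.19 ± 0.08, adjusted p = 7.44e-32). CCN2 went from 38.4, 42.9 and 39.8 CPM to 693, 663 and 600 CPM in 501Mel and from 25.4, 28 and 23.7 CPM to 33.1, 31.6 and 30.1 CPM in Hermes 3A (interaction 3.71 ± 0.0836). The chemokine CXCL1 rose in 501Mel from 1 or 2 reads per sample to 43, 58 and 44 reads, and was far above that in Hermes 3A at 246 to 265 CPM with shSCR and 457 to 470 CPM with shBRG1. INHBA, an activin subunit, and VEGFC, a lymphatic growth factor, rose in both lines, INHBA further in Hermes 3A (3.42 against 1.09) and VEGFC further in 501Mel (2.25 against 1.15). EREG, an EGF receptor ligand, CSF1, a macrophage growth factor, and MMP1, a collagenase, rose in Hermes 3A only.

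Of these secreted factors 8 fell in 501Mel (19.5%, beside 16.9% of all tested genes) and 1 in Hermes 3A (2.44%, beside 3.25%). The interaction was higher for 13 and lower for 12, with a median of 0.59, and with shSCR2 it was higher for 23 and lower for 4. IL6, the interleukin of the secretory phenotype of senescent cells, rose in both lines. It was at 2.03, 1.62 and 1.74 CPM in Hermes 3A shSCR and at 64.4, 65.8 and 66.6 CPM with shBRG1. In 501Mel it was at 0, 5 and 0 reads with shSCR1 and at 98, 128 and 76 reads with shBRG1. Its interaction of 0.28 had a 95% interval of -0.75 to 1.30, too wide to place it in the alike class. CXCL8, a neutrophil chemokine, was alike, rising from a mean of 9 to 32.1 CPM in 501Mel and from 48.6 to 110 CPM in Hermes 3A (interaction 0.65, 95% interval 0.439 to 0.855).

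The CCN2 promoter is shown for GGAATG, a core of the TEAD motif. It is the stretch of 250 bases before the RefSeq start on the minus strand, GRCh38.p14 chr6:131951373-131951622, with matches in capitals.
CCN2: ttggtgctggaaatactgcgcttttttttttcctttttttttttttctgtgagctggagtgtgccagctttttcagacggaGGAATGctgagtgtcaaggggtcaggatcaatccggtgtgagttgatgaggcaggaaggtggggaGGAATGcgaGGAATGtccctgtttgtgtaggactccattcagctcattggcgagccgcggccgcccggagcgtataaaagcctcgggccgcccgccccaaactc
The 3 matches begin 169, 104 and 95 bases before the start. GGAATG was found on either strand in 7 of 28 secreted-factor promoters (25%) and 5 of 18 contractile-gene promoters (27.8%), against 9.73% of tested genes. Among genes that rose in 501Mel only, it was in 10.6%.

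Of 43 listed mitosis genes 31 fell in 501Mel (72.1%, beside 16.9% of all tested genes) and 4 in Hermes 3A (9.3%, beside 3.25%). The log2 fold change, called or not, was negative for 43 of them in Hermes 3A and for 41 in 501Mel. Of 41 DNA replication genes 12 fell in 501Mel. The counts of called genes moved with the control and the scaling. With shSCR2 43 mitosis and 34 replication genes fell in 501Mel, and with library sizes 20 and 7. MKI67, the proliferation marker Ki-67, was at 168, 187 and 187 CPM in 501Mel shSCR1 and at 31.6, 27.9 and 28.8 CPM with shBRG1. In Hermes 3A it was at 188, 171 and 195 CPM and at 101, 113 and 106 CPM, a fold change of -0.79 ± 0.0534 against -2.62 ± 0.0577 in 501Mel (interaction -1.83 ± 0.0775, adjusted p = 1.49e-21). CENPF, a kinetochore protein, was 7.94-fold lower in 501Mel and 1.89-fold lower in Hermes 3A. The mitosis genes had medians of -1.31 in 501Mel and -0.79 in Hermes 3A, and none rose in either line. The interaction was lower for 9 and higher for none by edgeR's test, and with shSCR2 it was lower for 32. With library sizes it was lower for 5 and higher for 2. PCNA, the sliding clamp of DNA polymerase, was at 217, 253 and 250 CPM and then at 60.6, 59.5 and 59.9 CPM in 501Mel, and at 237, 220 and 241 CPM and then at 196, 194 and 197 CPM in Hermes 3A (interaction -1.75 ± 0.0689). The 12 replication genes that fell in 501Mel were 29.3% of the list, beside 16.9% of all tested genes, and with library sizes 7 fell. In Hermes 3A 4 fell (9.76%, beside 3.25% of all tested genes) and 1 rose (2.44%, beside 6.28%). Their median interaction of -0.23 turned to 0.05 with library sizes and was -1.21 with shSCR2. CDK1, the mitotic kinase, had an interaction in the other direction (0.46 ± 0.0863, under the fold threshold), on fold changes of -0.44 in 501Mel and -0.90 in Hermes 3A. CCNA2, CDC6 and FEN1 fell alike in both lines. CCNB1, the mitotic cyclin, had an interaction of -1.10 that was -0.83 with library sizes.

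The MKI67 promoter is shown for TTTGAA, the cell cycle homology region through which genes of late cell cycle are repressed. It is the 250 bases before the RefSeq start on the minus strand, GRCh38.p14 chr10:128126424-128126673, with matches in capitals.
MKI67: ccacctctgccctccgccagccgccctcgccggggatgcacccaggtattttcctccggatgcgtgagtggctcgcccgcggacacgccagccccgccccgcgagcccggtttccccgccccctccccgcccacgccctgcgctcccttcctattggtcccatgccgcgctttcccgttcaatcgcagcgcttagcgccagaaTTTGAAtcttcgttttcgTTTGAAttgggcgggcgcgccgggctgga
The matches begin 47 and 29 bases before the start. TTTGAA was found on either strand in 21 of 38 mitosis promoters (55.3%), against 9.39% of tested genes, and in 7.38% of those that fell in 501Mel only. CCAAT, the element of NF-Y, was in 29 of the mitosis promoters (76.3%) against 34.6%.

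Of 22 regulators of G1, 3 rose (13.6%) and 6 fell (27.3%) in 501Mel, beside 21.3% and 16.9% of all tested genes. In Hermes 3A 1 fell (4.55%, beside 3.25%). CDK2, the S-phase kinase, was 7.15-fold lower in 501Mel (mean 1424 and 199 CPM) and 1.71-fold lower in Hermes 3A (890 and 522 CPM). The span of CDK2 lies within that of PMEL in the annotation, PMEL was 8.83-fold and 1.8-fold lower, and with the strand setting unknown the reads of these genes cannot be told apart. CDKN2B, the inhibitor p15, rose from 34.2, 30.3 and 28.4 CPM to 294, 303 and 318 CPM in 501Mel and was at 17.4, 18 and 16.8 CPM and at 21.6, 20.7 and 21.5 CPM in Hermes 3A (interaction 3.01 ± 0.0818). The CDKN2B interaction was 4.93 with shSCR2. CDKN1C, the inhibitor p57, fell from a mean of 19.4 to 1.06 CPM in 501Mel, with an interaction of -3.84 that turned to 0.55 with shSCR2. CDKN1A, the inhibitor p21, had 2 to 6 reads in 501Mel shSCR1 samples and 6 to 19 with shBRG1, while it was at 910 to 989 CPM and at 1175 to 1322 CPM in Hermes 3A. CCND1, cyclin D1, was 3.51-fold lower in 501Mel, and its interaction of -1.43 was -0.31 with shSCR2. Of 25 p53 target genes, 2 rose (8%) and 1 fell (4%) in 501Mel. In Hermes 3A 3 rose (12%, beside 6.28% of all tested genes) and 1 fell (4%, beside 3.25%). The interaction was higher for 1 (4%, beside 12%) and lower for 5 (20%, beside 14.9%). BTG2, an antiproliferative p53 target, rose in Hermes 3A only (from a mean of 20.3 to 65.9 CPM), GDF15, a stress cytokine, fell there only (32.6 to 12.6 CPM), and TP53I3, an oxidoreductase, rose alike in both lines.

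In both lines 943 genes were called in the same direction, and few of them were in the alike class. FURIN, the protease that processes many proproteins, went from 32.2, 31.6 and 30.1 CPM to 151, 159 and 146 CPM in 501Mel and from 143, 151 and 130 CPM to 637, 634 and 644 CPM in Hermes 3A. It rose 4.86-fold and 4.52-fold, with an interaction of 0.10 (95% interval -0.04 to 0.24). NNMT, nicotinamide N-methyltransferase, rose 7.10-fold in 501Mel from under 0.6 CPM and 9.52-fold in Hermes 3A from 23.4 to 25.6 CPM (interval of the interaction -0.93 to 0.09). RBKS, ribokinase, and LURAP1L rose by 2.99 and 2.08 on the log2 scale in 501Mel and by 2.36 and 2.05 in Hermes 3A. BCAN, the proteoglycan brevican, went from 362, 404 and 386 CPM to 41.7, 43.7 and 41.6 CPM in 501Mel and from 42.2, 45 and 41.3 CPM to 7.45, 6.05 and 6.71 CPM in Hermes 3A, an interaction of -0.51 (95% interval -0.68 to -0.33). GALNT3, a glycosyltransferase, fell 4.76-fold and 3.86-fold. NGFR, a neurotrophin receptor of dedifferentiated melanoma cells, rose in both (2.04 ± 0.151 and 1.66 ± 0.11, interval of the interaction -0.01 to 0.77). With shSCR2 as the reference, the change of FURIN in 501Mel was 1.28 on the log2 scale in place of 2.28, so that being alike is relative to shSCR1.

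Among genes that moved in both lines by unequal amounts, SEMA5A, a semaphorin guidance cue, went from 1027, 1064 and 1070 CPM to 24.4, 21.6 and 25 CPM in 501Mel and from 553, 573 and 576 CPM to 214, 222 and 222 CPM in Hermes 3A (interaction -4.11 ± 0.0701). DKK1, a secreted WNT antagonist, rose 38.8-fold in 501Mel from under 1 CPM and 2.48-fold in Hermes 3A (from a mean of 93.7 to 232 CPM). TNFRSF12A, the receptor of TWEAK, rose from a mean of 13.1 to 164 CPM and from 98.1 to 206 CPM. The BMP target ID3, an inhibitor of helix-loop-helix factors, rose 11.9-fold in 501Mel and 2.92-fold in Hermes 3A, and its interaction of 2.03 was 0.25 with shSCR2. Its relative ID2 rose in 501Mel only, from 8.13, 8.46 and 8.57 CPM to 81.7, 82.7 and 76.6 CPM, and was at 175 to 187 CPM and at 137 to 156 CPM in Hermes 3A (interaction 3.6 ± 0.0777). PAEP, glycodelin, fell in both lines with an interaction of -4.13 that turned to 2.65 with shSCR2, and ITGAX, an integrin chain, with -3.20 turned to 1.02. Of 32 TGF-beta and BMP genes, 10 rose (31.2%) and 7 fell (21.9%) in 501Mel, beside 21.3% and 16.9% of all tested genes. In Hermes 3A 6 rose (18.8%) and 1 fell (3.12%), beside 6.28% and 3.25%. The interaction was higher for 7 and lower for 7.

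Among genes of the melanoma-only class, at 1 CPM or more in both lines, was ANXA1, annexin A1, a phospholipid-binding protein. It went from 1.33, 0.818 and 0.83 CPM to 129, 119 and 127 CPM in 501Mel and from 218, 207 and 228 CPM to 361, 369 and 361 CPM in Hermes 3A, higher there as well but not called. It rose 124-fold in the melanoma line, where the knockdown left it below the melanocyte controls, and had an interaction of 6.22 ± 0.105 (adjusted p = 6.85e-34). ZNF177, a zinc finger protein, rose from under 1.1 CPM to 27 to 31.2 CPM. NOX5, a calcium-dependent NADPH oxidase, fell from 43.9 to 45.7 CPM down to 0.164 to 0.402 CPM, and OSBPL10, an oxysterol-binding protein, from 322 to 367 CPM down to 5.79 to 7.67 CPM. APOD, a lipocalin, and DNER, a Notch-like receptor, fell in 501Mel as well (-6.00 and -5.1 on the log2 scale).

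Genes of the melanocyte-only class were fewer. SEMA6B, a transmembrane semaphorin, rose from 6.64, 7.87 and 6.5 CPM to 47.5, 43 and 46.4 CPM in Hermes 3A. In 501Mel it was at 24.2, 24.9 and 23.3 CPM and at 13.3, 12.9 and 13.6 CPM, lower but not called. Its interaction was -3.57 ± 0.103 and came to -1.70 with shSCR2. LRATD2 rose 4.54-fold in Hermes 3A (from a mean of 3.75 to 17.2 CPM), and its 501Mel groups overlapped at 18 to 22.8 CPM. GPR158, an orphan receptor, rose by 2.03 ± 0.127 on the log2 scale. Among those that fell were SLC7A7, an amino acid transporter subunit (from a mean of 2.39 to 0.420 CPM), CSMD1, a large membrane protein with complement control domains (6.56 to 1.86 CPM), and SEMA3A, a secreted semaphorin (4.98 to 1.59 CPM). PTPRN, a protein of secretory granules, rose there, and its interaction of -2.88 turned to 1.61 with shSCR2.

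Of the lysosome genes 56.2% fell in 501Mel and of the cholesterol genes 53.6%, beside 16.9% of all tested genes. With shSCR2 as the reference, 8 of 32 lysosome genes and 13 of 28 cholesterol genes fell there. The 501Mel median of the lysosome genes was then -0.58 in place of -1.21. PPARGC1A, the coactivator that drives mitochondrial biogenesis in pigmented melanoma, went from 139, 158 and 156 CPM to 15, 12.5 and 16 CPM in 501Mel and from 2.71, 3.32 and 3.04 CPM to 5.47, 6.26 and 5.87 CPM in Hermes 3A. The groups did not overlap in either line, the fall was 10.4-fold, and the interaction was -4.35 ± 0.129 (adjusted p = 3.17e-26). Of the 31 genes of the oxidative phosphorylation list, PPARGC1A included, 7 fell in 501Mel (22.6%), 3 fell with library sizes, and none was called in Hermes 3A, where 1 rose with library sizes. The interaction was lower for 8, for 2 with library sizes and for 18 with shSCR2. Of 32 lysosome genes, 18 fell and 1 rose in 501Mel and 4 fell and 2 rose in Hermes 3A. CTSL, a lysosomal protease, fell in 501Mel (1286, 1138 and 1120 CPM to 174, 170 and 171 CPM) and was 1.81-fold higher in Hermes 3A (643, 675 and 658 CPM to 1143, 1252 and 1179 CPM), an interaction of -3.64 ± 0.0732 and -1.82 with shSCR2. The interaction was lower for 14 lysosome genes and higher for 3, but with shSCR2 it was lower for 4 and higher for 2, and the median of -0.90 came to -0.11. SCD, the fatty acid desaturase, fell 13.5-fold in 501Mel and was 1.66-fold lower in Hermes 3A. Of 28 cholesterol genes, 15 fell in 501Mel and 5 in Hermes 3A, and the interaction was lower for 5 and higher for 1. Of 30 glycolysis and hypoxia genes, 7 fell in 501Mel (23.3%, and 3 genes with library sizes) and 1 in Hermes 3A, and LDHA, lactate dehydrogenase, had changes of 0.17 and 0.28. Of 31 ATF4 and amino acid stress genes, 2 rose and 5 fell in 501Mel (16.1%) and 1 rose and 1 fell in Hermes 3A. DDIT3, the stress factor CHOP, rose in 501Mel only, from 34.1, 38.8 and 35.6 CPM to 174, 185 and 165 CPM (interaction 2.54 ± 0.078). SLC7A11, the cystine transporter, rose in Hermes 3A only (interaction -2.03 ± 0.238).

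**Figure D5:**
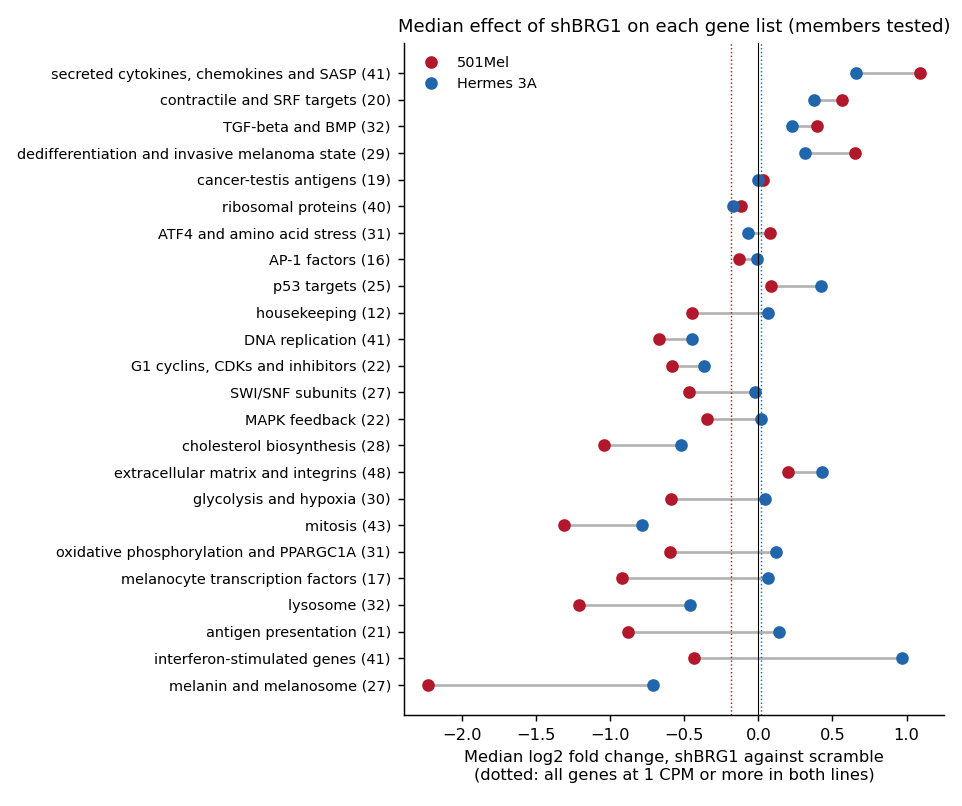
Median log2 fold change with shBRG1 of each gene list of 10 or more tested members (24 lists, member numbers in brackets) in 501Mel and Hermes 3A, with dotted lines at the medians of all genes at 1 CPM or more in both lines. The 501Mel median is below the Hermes 3A median in 17 lists, most for melanin and melanosome genes (-2.23 and -0.71) and interferon-stimulated genes (-0.43 and 0.97), and above it for secreted factors (1.09 and 0.66).

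In 501Mel matrix and MAPK feedback genes rose and fell in like numbers. In the contractile, dedifferentiation and AP-1 lists more rose than fell, as over all tested genes (21.3% and 16.9%). Of 48 tested matrix and integrin genes (of 49 listed), 15 rose (31.2%) and 13 fell (27.1%) in 501Mel. In Hermes 3A 7 rose (14.6%) and 4 fell (8.33%), beside 6.28% and 3.25% of all tested genes. The matrix interaction was higher for 13 (27.1%, beside 12%) and lower for 20 (41.7%, beside 14.9%). With shSCR2 it was higher for 18 and lower for 11, so that the balance of this list turned with the control. THBS1, the matricellular thrombospondin, rose in Hermes 3A only (2.61), while the laminin chains LAMA5, LAMB1 and LAMC1 and the collagen VI chains COL6A1 and COL6A2 fell in 501Mel only. COL6A3, of the same collagen, fell in both, and its interaction of -3.04 turned to 1.02 with shSCR2. Of 20 tested contractile genes (of 21 listed), 8 rose (40%, beside 21.3% of all tested genes) and 2 fell (10%) in 501Mel. In Hermes 3A 3 rose and 1 fell. Their interaction was higher for 5 and lower for 3, and with shSCR2 higher for 9 and lower for 2. TAGLN, transgelin, rose in 501Mel only (from a mean of 6.48 to 27.3 CPM), and ACTA2, smooth muscle actin, was alike (fold changes of 1.78 and 1.20). ANKRD1, a YAP target, went from 17, 30 and 23 reads to 5443, 4688 and 3938 reads in 501Mel, and had 1, 4 and 0 reads and then none in Hermes 3A, so that no fold can be given there. Of 29 tested genes (of 30 listed) of the dedifferentiated state of melanoma, 14 rose (48.3%) and 7 fell (24.1%) in 501Mel. In Hermes 3A 6 rose (20.7%, beside 6.28% of all tested genes) and 1 fell (3.45%, beside 3.25%). Their interaction was higher for 7 (24.1%, beside 12%) and lower for 6 (20.7%, beside 14.9%). The receptor gene MET fell in 501Mel only (interaction -1.80 ± 0.0801), and EGFR rose there only, from under 0.25 CPM to 0.46 to 0.634 CPM. Of 16 AP-1 factors 5 rose (31.2%) and 1 fell (6.25%) in 501Mel, beside 21.3% and 16.9% of all tested genes. In Hermes 3A 1 rose (6.25%, beside 6.28%), and the interaction was higher for 3 and lower for 2. FOS, lower in 501Mel than in Hermes 3A by -1.16, came to 0.02 with shSCR2. Of 22 MAPK feedback genes 3 rose (13.6%) and 2 fell (9.09%) in 501Mel, both below the shares of all tested genes. In Hermes 3A 1 rose (4.55%, beside 6.28%) and 2 fell (9.09%, beside 3.25%). DUSP6, a phosphatase of ERK, had changes of -0.71 and -0.75 (interaction 0.05, 95% interval -0.09 to 0.18).

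Among SWI/SNF subunits a few single genes differed, while the list as a whole lay near the share of all genes. PBRM1, a bromodomain subunit of the PBAF form, went from 190, 208 and 208 CPM to 41.6, 37.8 and 40.6 CPM in 501Mel and from 146, 142 and 151 CPM to 91.1, 84.5 and 90.5 CPM in Hermes 3A. It fell 5.05-fold in 501Mel, close to SMARCA4 itself, and was 1.65-fold lower in Hermes 3A (interaction -1.62 ± 0.0686, adjusted p = 7.15e-22). ARID1B, SMARCC2 and PHF10, other subunits, fell in 501Mel only (interactions -1.44, -1.21 and -1.25). SMARCA2, the alternative ATPase BRM, had changes of -0.80 and -0.08, both under the fold threshold. Of 27 tested subunits (of 28 listed, SMARCA4 included), 5 fell in 501Mel (18.5%, beside 16.9% of all tested genes) and 1 rose, 2 fell in Hermes 3A, and the interaction was lower for 5 (18.5%, beside 14.9%) and higher for 1. The median interaction of -0.25 turned to 0.03 with library sizes.

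Ribosomal protein and housekeeping lists, often used as stable references, fell in 501Mel at about the share of all genes, 16.9%. Of 40 ribosomal protein genes, 5 fell in 501Mel (12.5%) and none was called in Hermes 3A, and of 12 housekeeping genes 2 fell in 501Mel (16.7%) and none was called in Hermes 3A. The 2 were SDHA and GUSB, and the GUSB interaction of -1.73 came to -0.80 with shSCR2. RPL3, a ribosomal protein gene, fell from 852, 936 and 910 CPM to 232, 261 and 237 CPM in 501Mel and was at 1073, 1082 and 1052 CPM and at 791, 844 and 780 CPM in Hermes 3A. Of 19 tested cancer-testis antigens (of 28 listed), 5 rose (26.3%, beside 21.3% of all tested genes) and 2 fell (10.5%) in 501Mel. In Hermes 3A 1 rose and 1 fell. MAGEA4 was at 400 to 401 CPM and at 618 to 649 CPM in 501Mel and had no read in any Hermes 3A sample, so that its effect can be compared in 1 line only. Of 9 tested Schwann cell and neural crest markers (of 10 listed), 5 fell in 501Mel, 2 rose and 3 fell in Hermes 3A, and S100B fell in both lines (-2.30 and -1).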

How the data were processed

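RNA was sequenced from 501Mel and Hermes 3A cells after ribosomal RNA depletion and a duplex-specific nuclease step, which lowers abundant cDNAs. Per sample, the authors deposited unnormalized counts of reads on 42224 Ensembl genes. The submitters' processing notes name CASAVA 1.8, TopHat 1.4.1, Bowtie 0.12.7 and hg19. The counting program, the annotation and the strand setting are not given in the sources used here, so that overlapping and antisense genes and near-identical copies are uncertain. Harvest times were not stated.

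The 12 samples of the 4 groups were fitted together with edgeR 4.0.16 (R 4.3.3) by filterByExpr, TMM factors, robust glmQLFit and glmQLFTest on 3 contrasts, with Benjamini-Hochberg adjustment over all 21697 genes tested. Calls needed an adjusted p under 0.05 and an absolute log2 value over 1. Standard errors are the log2 value divided by the root of F, and intervals are at 95%. Depth was 32941771 to 61804675 reads per sample, and low counts limit the precision of scarce genes. DESeq2 1.42.0, other scalings and filters, another 501Mel control and leaving out each replicate were the alternatives, and the code was tested on simulated data. Gene types follow GENCODE 29, symbols were found for 31242 genes, and 757 of 764 list entries matched, in 29 lists. Plots were drawn with matplotlib 3.10.9, and tables were made in Python 3.11.15 (scipy 1.17.1, numpy 2.4.6, pandas 2.3.3).

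The comparison, the classes and the lists were chosen with earlier results of these data known. Named genes were core genes of each theme, the largest called interaction of each list in each direction, and per class the 4 protein-coding genes with the largest effect, no overlap of samples, at least 10 counts on average in each group and at least 1 CPM in both lines. Outside that rule, 3 low-count genes per direction were taken as well. Other list members were named for their class after their values were seen. Replicate numbers did not pair the samples: the deviations of same-numbered samples of a line from their group means correlated at -0.0786 to 0.146 over 13000 genes. Some list members are not reported here.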

Additional observations from a re-analysis of the deposited data

Results flagged for a closer look

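The interaction term itself tested the difference between the lines, and 2610 genes were higher and 3224 lower in 501Mel than in Hermes 3A. In 214 genes both lines were called and moved in opposite directions.

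Genes called in opposite directions included CDK6 (interaction 3.35), IFIT1 (-3.32), MX1 (-3.57), OASL (-6.37), CEND1 (-5.98), TM4SF1 (-4.65), EFNA1 (-4.54), NOTCH3 (-4.29), FES (4.48), SSX1 (3.04) and LOX (2.99). The EFNA1 interaction was -0.03 with shSCR2 as the 501Mel control, and the rise of CDK6 in 501Mel was likewise relative to shSCR1. The fitted ANKRD1 interaction of 11.35 rests on 1, 4 and 0 reads in Hermes 3A shSCR and on none with shBRG1, so that it is no measure of size.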

How the results depend on the processing

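With shSCR2 as the 501Mel control, 4545 genes were higher in the interaction, 6518 were melanoma only and 315 melanocyte only. Of the genes in each class 60.8% stayed melanoma only, 25.3% melanocyte only, 23.1% alike, 54% unequal and 37.9% opposite. The sign turned for CDKN1C (0.55), HLA-B (0.57), FOS (0.018), COL6A3 (1.02), CHAC1 (0.70), ENO2 (0.49), RPLP0 (-0.48), SPRED3 (1.68), CD68 (1.25), PTPRN (1.61), PAEP (2.65) and ITGAX (1.02). With both 501Mel controls pooled, 221 genes were melanocyte only, 86 alike, 146 unequal and 80 opposite. The cause was not tested. With 10 counts in every sample, which leaves fewer genes, 1709 were higher, 1851 lower, 2586 melanoma only, 187 melanocyte only, 146 unequal and 54 opposite. A test against the fold threshold itself gave 1272 higher, 2121 lower, 2631 melanoma only, 146 melanocyte only, 97 alike, 73 unequal and 36 opposite. Without a fold threshold there were 5384 higher, 7189 lower, 1046 melanocyte only, 3777 in the class both alike, 1850 unequal and 2346 opposite. With all 19 samples in the fit 133 were alike. Leaving out 1 replicate at a time gave 2387 to 2879 higher, 2816 to 3380 lower, 3961 to 4150 melanoma only, 429 to 505 melanocyte only, 195 to 232 alike, 244 to 258 unequal and 204 to 243 opposite. With the replicate block, 2538 genes were higher and 3205 lower, and 2525 and 3202 with the block within each line. Of 156 values of named genes, 96 kept direction and call in every setting run. A filter on genes listed in any group was not run, since all 12 files list the same genes. Counts of list members under other scalings and controls were chosen after seeing the data.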
